A study of Mus musculus with 16 samples.

Results

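The expression of 10 genes of NAD synthesis and NAD use was examined in the liver and kidney of mice kept under a chronic jet-lag schedule. The genes are Nampt, Nmrk1, Nmnat1, Nmnat3 and Nadk, which make NAD or convert it to NADP, and Sirt1, Sirt3, Sirt5, Cd38 and Parp1, whose products consume NAD. They were picked by gene symbol from the pathway and make up 10 of the 32989 genes listed in each of the deposited tables, with 1 table row per symbol. All animals were male C57BL/6J mice aged 97 weeks that had spent 85 weeks either under a fixed light-dark cycle with light from 8 to 20 o'clock (LD, n = 4 mice) or under a cycle advanced by 8 hours once every 4 days (ADV, n = 4 mice). Liver and kidney of the same 8 mice were sequenced as 16 poly(A)-selected libraries, and the tissues were collected in the early part of the night. Since only this part of the light cycle was sampled, a change in level cannot be told apart from a shift in daily phase. The LD mice are named L63, L65, L86 and L104, and the ADV mice A75, A91, A94 and A115.

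NAD is a coenzyme of oxidation and reduction reactions and also a substrate that is split by several enzymes, so that cells have to rebuild it. In most tissues it is rebuilt from nicotinamide in a salvage route in which NAMPT, the rate-limiting enzyme, makes nicotinamide mononucleotide and the NMNAT enzymes turn this into NAD, whereas the liver also makes NAD from tryptophan. Transcription of Nampt is driven by the circadian activators CLOCK and BMAL1, and the NAD-dependent deacetylase SIRT1 acts back on the clock proteins, which ties this pathway to the question of what a long disturbance of the light cycle does to peripheral organs.

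Among the 10 genes, Nampt and Sirt1 have been linked to the clock most closely, and the sequence around their start sites is therefore shown. The windows run from 250 bases before the start to 50 bases after it, in the direction of the gene (RefSeq, GRCm38.p6). Nampt lies at chr12:32820085-32820384 on the plus strand and Sirt1 at chr10:63338986-63339285 on the minus strand. In Nampt the single capital marks the first transcribed base, and in Sirt1 the capitals mark the canonical E-box CACGTG, which reads the same on both strands.
Nampt: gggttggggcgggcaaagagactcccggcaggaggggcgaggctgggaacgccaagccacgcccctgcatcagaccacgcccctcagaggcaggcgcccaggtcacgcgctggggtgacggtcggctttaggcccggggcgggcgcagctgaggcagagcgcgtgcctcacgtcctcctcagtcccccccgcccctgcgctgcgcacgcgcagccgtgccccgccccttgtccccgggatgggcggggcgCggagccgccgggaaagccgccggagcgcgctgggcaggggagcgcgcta
Sirt1: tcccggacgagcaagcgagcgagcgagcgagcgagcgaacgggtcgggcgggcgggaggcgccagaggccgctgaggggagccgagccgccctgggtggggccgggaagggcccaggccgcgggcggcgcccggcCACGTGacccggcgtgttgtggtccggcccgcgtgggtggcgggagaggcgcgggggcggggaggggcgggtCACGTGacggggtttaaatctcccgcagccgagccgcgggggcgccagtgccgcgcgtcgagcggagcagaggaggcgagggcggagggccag
The window of Sirt1 held 2 copies of the E-box and that of Nampt none, which says only that these letters do not occur in this window. For the 10 genes, 13 windows were listed, since Nmnat1, Nadk and Sirt3 have 2 each. The E-box occurred in 3 of the 13, those of Sirt1, Parp1 and 1 of the Nadk windows, and in 7.15% of the 32851 windows of all genes.

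Expression was measured as FPKM, the number of sequenced fragments per length of exon and per depth of the library. Between 21092501 and 24285055 fragments per liver and between 15688495 and 18043306 per kidney fell on genes. The smallest numbers behind a value were 36.5 fragments for Nmnat1 in 1 kidney and 40.5 for Nmnat3 in 1 liver, whereas Nampt rested on 2551.5 to 6685 fragments. Each library carried the markers of its labelled organ, with albumin at 41459 to 52061 FPKM in every liver against 2.83 to 5.71 in the kidneys, and the proximal tubule transporter Slc34a1 at 153.6 FPKM or more in every kidney and at 0 in every liver. Because whole organs were homogenized, fewer cells of a type cannot be told apart from less RNA per cell.

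A pair of ADV mice stood apart and touches several results. In the kidney of A115, mitochondrial transcripts took 33.8% of the fragments against 9.43% to 18.0% in the other 7 kidneys. Across genes its values correlated on average at 0.947 with those of the other 7, which correlated among themselves and with it at 0.973 to 0.984. Slc34a1 was at 153.6 FPKM in it against 801 to 1553 in the others, and the collecting duct channel gene Aqp2 at 1.81 against 35.7 to 200. The liver and the kidney of A94 carried high levels of immune cell markers. The summed level of 6 macrophage markers was 270.8 FPKM in the A94 liver, 74.1 to 82.9 in the other 3 ADV livers and 51.5 to 67.8 in the LD livers, so that every ADV liver lay above the LD range. That of 6 B and plasma cell markers was 662 in the A94 liver, 5.48 to 18.1 in the other ADV livers and 4.71 to 9.74 in the LD livers. The sum of 4 stellate and fibroblast markers lay above the LD range in every ADV liver, at 155 to 238 against 109 to 127 FPKM. In the A94 kidney the macrophage sum was 76.1, against 18.3 to 45.7 in the other ADV and 18.7 to 35.2 in the LD kidneys, and the B and plasma cell sum 492, against 13.2 to 57.5 and 30.5 to 45.1. The A94 liver correlated on average at 0.976 with the other livers, against 0.988 to 0.990 for those. Calls and counts that change without one of these mice are given with and without it.

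**Figure D1:**
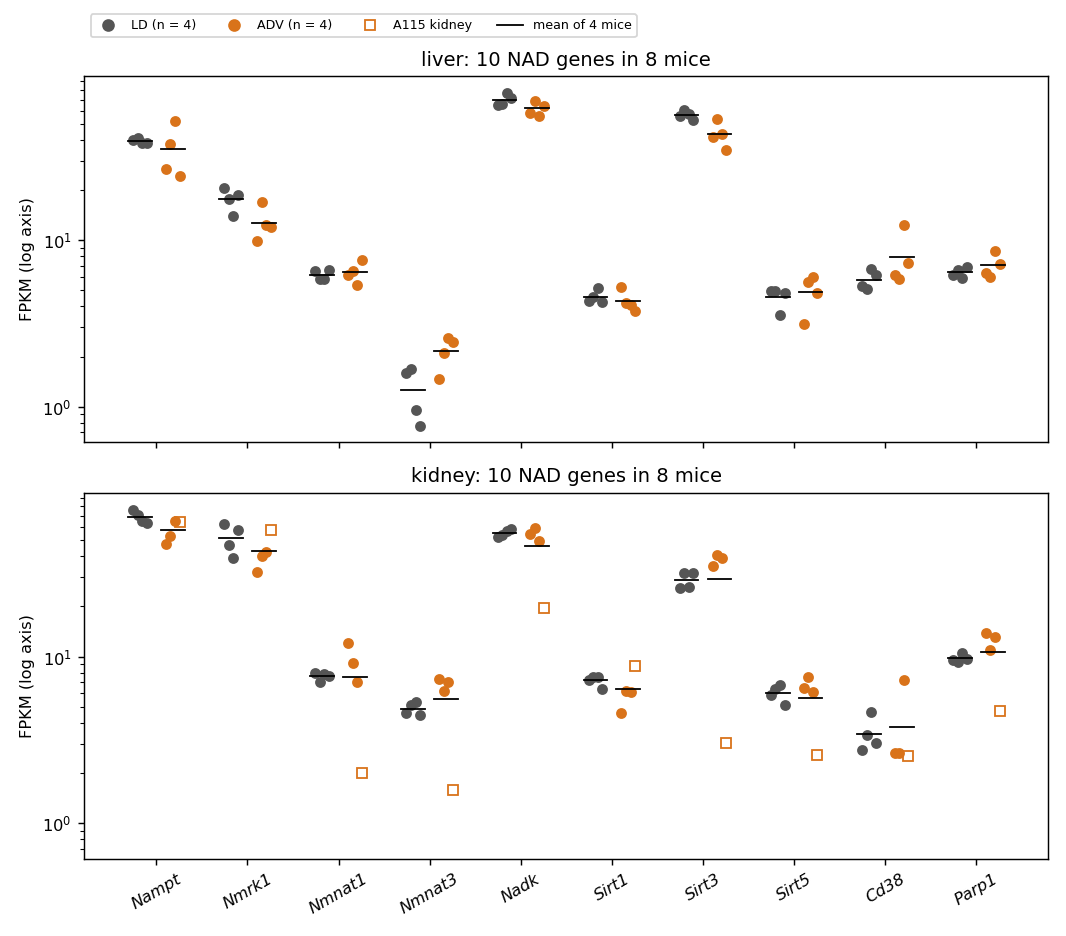
FPKM of the 10 genes on a log axis in the liver (top) and kidney (bottom), with 1 point per mouse, grey for LD, orange for ADV, an open square for the A115 kidney and a line at the mean of 4 mice. The A115 kidney lies below the other 7 kidneys for 7 of the 10 genes, and the ADV livers spread more widely than the LD livers for 9 of the 10.

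The level of the genes was first compared within the LD mice. FPKM is divided by exon length, so that levels can be compared between genes. In the LD livers the NAD kinase gene Nadk stood highest with 69.5 ± 5.53 FPKM (mean ± SD, n = 4), followed by Sirt3 with 56.6 ± 3.10, Nampt with 39.4 ± 1.38 and Nmrk1 with 17.8 ± 2.79, and the ranges of these neighbours did not overlap. Parp1 (6.42 ± 0.431), Nmnat1 (6.20 ± 0.450), Cd38 (5.80 ± 0.764), Sirt1 (4.59 ± 0.431) and Sirt5 (4.58 ± 0.695) followed as a group in which each range overlapped the next. Nmnat3 was the lowest, with 1.25 ± 0.460 FPKM.

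In the LD kidneys the order differed at the top, where Nampt led with 68.9 ± 5.72 FPKM. Nadk (55.3 ± 2.63) and Nmrk1 (51.6 ± 10.5) followed with overlapping ranges, then Sirt3 with 28.9 ± 3.37 and Parp1 with 9.75 ± 0.549, each apart from its neighbours. Nmnat1 (7.62 ± 0.394), Sirt1 (7.19 ± 0.535), Sirt5 (6.02 ± 0.697), Nmnat3 (4.87 ± 0.432) and Cd38 (3.44 ± 0.828) formed an unbroken chain of overlapping ranges. In both organs, Nampt, Nmrk1, Nadk and Sirt3 were thus listed higher than Sirt1, Sirt5, Nmnat1 and Nmnat3. Sirt2, Sirt7, Sirt4 and Sirt6, outside the 10 genes, were at 21.2, 11.8, 2.16 and 0.694 FPKM in the LD livers. In the LD kidneys they were at 30.8, 15.5, 4.25 and 2.22.

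Liver and kidney of the same mice were then compared. On the log2(FPKM + 0.1) scale, 8 of the 10 genes differed between the organs (limma across all genes, Benjamini-Hochberg adjusted p under 0.05), against 74.5% of all 14379 genes tested, a share near that of the 10 genes. The Nmrk1 and Nmnat3 genes were lower in the liver, and Nadk, Sirt3 and Cd38 were higher there, and these 5 directions remained the same when the libraries were scaled by the median ratio of all genes instead of by their totals. For the other 5 genes the direction, or whether there was any difference, depended on that scaling. The median of all genes was −0.74 (log2, liver minus kidney) as deposited and −0.01 after scaling by the median ratio.

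Nmrk1 (chr19:18632016-18652191, plus strand), which encodes a kinase that phosphorylates nicotinamide riboside, was higher in every kidney than in any liver. Its level ran from 9.87 to 20.7 FPKM (median 15.5) in the 8 livers and from 32.2 to 62.7 (median 44.8) in the 8 kidneys, without overlap. With all mice the organs were apart in this 1 of the 10 genes, against 43.4% of all genes, and without A115 in 5 (Nmrk1, Nmnat1, Nmnat3, Sirt3 and Parp1), against 59.6%. On the log scale it was 3.10 times higher in the kidney (log2 liver minus kidney −1.63, SE 0.15, adjusted p = 8.9e-08; −0.87 with scaling by the median ratio, adjusted p = 0.0016). Nmnat3 (chr9:98296583-98411428, plus strand), an NMN adenylyltransferase assigned to mitochondria, ran from 0.767 to 2.60 FPKM (median 1.64) in the livers and from 1.59 to 7.28 (median 5.23) in the kidneys. It was 2.91 times higher in the kidney on the log scale (log2 −1.54, SE 0.28, adjusted p = 0.00016; −0.80 with scaling by the median ratio, adjusted p = 0.0049), lower in the liver in 7 of the 8 mice and higher in the liver in A115.

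Sirt3, Cd38 and Nadk were higher in the liver than in the kidney in 8 of 8 mice, the direction for which the paired exact sign-flip test gave p = 0.0078, its smallest possible value with 8 pairs. The product of Sirt3 (chr7:140863663-140881869, minus strand) removes acetyl groups from mitochondrial enzymes. Sirt3 ran from 34.9 to 60.4 FPKM (median 53.2) in the livers and from 3.04 to 40.5 (median 31.8) in the kidneys, and was 2.03 times higher in the liver (log2 1.02, SE 0.42, adjusted p = 0.039), or by 0.62 on the log2 scale without A115 (SE 0.08, adjusted p = 5.4e-06). Cd38 (chr5:43868809-43912374, plus strand), a glycohydrolase that splits NAD and is abundant on immune cells, ran from 5.08 to 12.4 FPKM (median 6.15) in the livers and from 2.52 to 7.25 (median 2.88) in the kidneys. It was 1.93 times higher in the liver (log2 0.95, SE 0.23, adjusted p = 0.0014). Nadk (chr4:155562392-155591001, plus strand), the cytosolic NAD kinase, ran from 56.1 to 76.5 FPKM (median 65.1) and from 19.5 to 59.6 (median 54.3), and was 1.35 times higher in the liver (log2 0.44, SE 0.18, adjusted p = 0.042; 0.24, adjusted p = 0.0046, without A115). With scaling by the median ratio these differences were larger, at 1.79 for Sirt3, 1.70 for Cd38 and 1.21 for Nadk (adjusted p = 0.00028, 5.5e-07 and 9.9e-07). As deposited and with any 1 of the 4 LD mice left out, Sirt3 (adjusted p between 0.069 and 0.086) and Nadk (between 0.081 and 0.097) no longer passed, at nearly the same differences. Both also missed the threshold with all mice when no filter on low values was applied (adjusted p = 0.051 and 0.054).

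Nampt (chr12:32820335-32853369, plus strand) was 1.72 times higher in the kidney as deposited (log2 liver minus kidney −0.78, SE 0.14, adjusted p = 0.00012), and higher there in 8 of 8 mice, but the difference was −0.01 (adjusted p = 0.95) with scaling by the median ratio and −0.54 (adjusted p = 0.0060) with quantile normalization. Sirt1 (chr10:63319005-63339035, minus strand), a nuclear deacetylase, and Parp1 (chr1:180568975-180601254, plus strand), which attaches chains of ADP-ribose to proteins at DNA breaks, were lower in the liver as deposited (log2 −0.58 and −0.54) and turned to 0.17 and 0.22 with that scaling. Nmnat1 (chr4:149468787-149485142, minus strand), the nuclear NMN adenylyltransferase, and Sirt5 (chr13:43365535-43395203, plus strand), a mitochondrial enzyme that removes succinyl groups, passed no test as deposited (log2 −0.14 and −0.27). They were higher in the liver with the scaling by the median ratio (log2 0.62 and 0.49, adjusted p = 0.017 and 0.011), under which 7 of the 10 genes differed, against 65.3% of all genes. Without A115 and as deposited, all 10 differed, against 85.6% of all genes, and Parp1 no longer passed without A75 or without A91 (adjusted p = 0.057 and 0.054). Within the 4 LD mice, the differences as deposited were −1.94 for Nmnat3, −1.52 for Nmrk1, 0.76 for Cd38 and 0.97 for Sirt3 on the log2 scale.

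**Figure D2:**
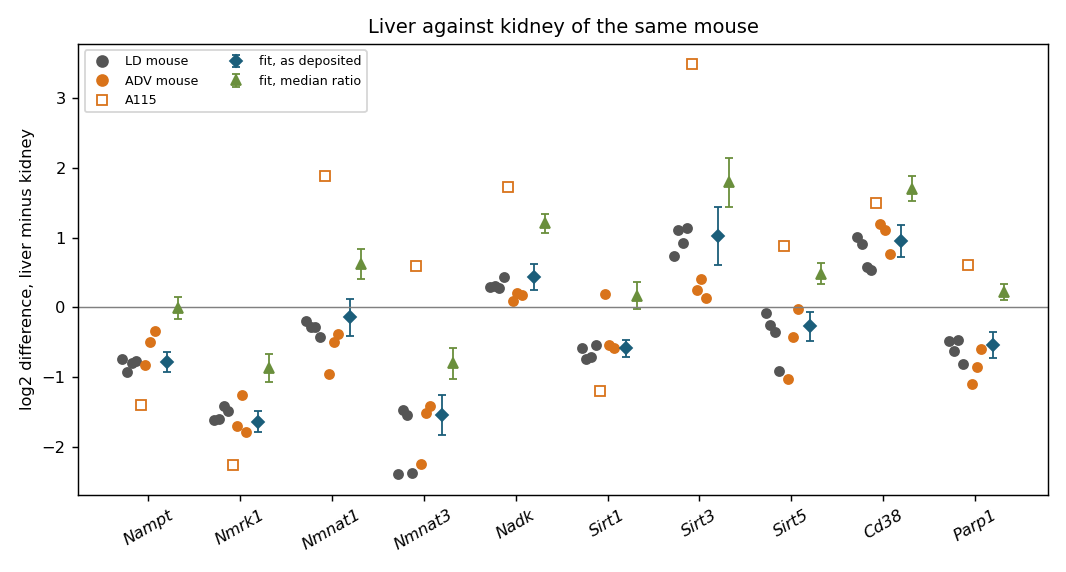
Log2 difference of FPKM + 0.1 between liver and kidney of the same mouse for the 10 genes, with points for mice (grey LD, orange ADV, open square A115) and the fitted mean ± SE as deposited (diamond) and with scaling by the median ratio (triangle). Both fits lie below 0 for Nmrk1 and Nmnat3 and above 0 for Nadk, Sirt3 and Cd38, and the A115 mouse lies away from the other 7 for most genes.

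The question of the study, whether the ADV schedule changes expression in these organs, was then asked in each organ. In the liver none of the 10 genes passed the test between ADV and LD mice (limma, adjusted p under 0.05), and 0 passed with limma-voom on the recovered fragments. Of all 12835 genes tested, 1 passed, or 0.00779%. At an unadjusted p under 0.05, 3 of the 10 genes were found, Sirt3, Nmnat3 and Nmrk1, against 11.8% of all genes. The fitted difference was positive in 5 and negative in 5 of the 10, with a median of −0.02 (log2), beside a median of 0.10 over all genes. In none of the 10 were the 4 ADV livers apart from the 4 LD livers, which was the case in 8.84% of all genes.

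Sirt3 had the smallest unadjusted p among the 10 in the liver. Its level was 56.0, 60.4, 57.2 and 52.9 FPKM in L63, L65, L86 and L104, and 41.5, 53.5, 43.3 and 34.9 in A75, A91, A94 and A115. All ADV livers but A91 lay below the LD range, and A91 lay inside it. The difference was −0.40 on the log2 scale (SE 0.13, unadjusted p = 0.011, adjusted p = 0.34 by limma), and the two-sided exact permutation test gave p = 0.057, and could not have gone below 0.029 with 4 mice in each condition. The counted model of Sirt3 has 1408 exonic bases, and the GENCODE transcript nearest to it in length (1416 bases) shares 414 bases with exons of Ric8a on the opposite strand. The strand setting of the authors' counting was not given in the sources used here, so that reads of this stretch cannot be assigned with certainty. Ric8a lay between 4.01 and 6.99 FPKM in the livers. In the LD kidneys it lay between 7.37 and 9.46. In the kidneys of A75, A91, A94 and A115 it was at 10.7, 9.77, 11.3 and 1.97. The same limit holds for Sirt3 in the kidney.

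Nmrk1 and Nmnat3 showed the other 2 unadjusted p under 0.05, in opposite directions. Nmrk1 lay at 20.7, 17.7, 14.0 and 18.8 FPKM in the LD livers L63, L65, L86 and L104 and at 9.87, 16.9, 12.3 and 12.0 in the ADV livers A75, A91, A94 and A115. A91 again lay within the LD range, and the other 3 ADV livers lay below it (log2 −0.49, SE 0.18, adjusted p = 0.37, exact permutation p = 0.057). Nmnat3 lay at 1.59, 1.69, 0.953 and 0.767 FPKM in the LD livers and at 1.47, 2.11, 2.60 and 2.45 in the ADV livers, in the same order of mice. All ADV livers but A75 exceeded the LD range (log2 0.78, SE 0.28, adjusted p = 0.37, exact permutation p = 0.086). Nmnat3 is a gene with few fragments, between 40.5 and 127.5 per liver. With scaling by the median ratio Sirt3, Nmrk1 and Nmnat3 stood at −0.49, −0.58 and 0.69, again without passing (adjusted p between 0.27 and 0.32).

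The level of Nampt differed between the ADV livers more than between the conditions. It lay between 38.1 and 40.9 FPKM in the 4 LD livers and at 26.7, 37.8, 52.0 and 24.2 in A75, A91, A94 and A115. The mean was 35.2 ± 12.7 FPKM in ADV against 39.4 ± 1.38 in LD (log2 −0.23, SE 0.21, adjusted p = 0.64, exact permutation p = 0.31), and the SD on the log2 scale was 9.93 times that of the LD livers. Without A94 the difference was −0.44 (SE 0.14, unadjusted p = 0.012, adjusted p = 0.23), and without A115 it was −0.07.

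Cd38 differed mainly through 1 mouse. It lay between 5.08 and 6.72 FPKM in the LD livers and at 6.16, 5.82, 12.4 and 7.32 in A75, A91, A94 and A115 (log2 0.38, SE 0.23, adjusted p = 0.49, exact permutation p = 0.14). Without A94 the difference was 0.15. The A94 liver, with the highest Cd38, was also the liver with the highest sums of the macrophage, B and plasma cell and T and NK cell markers, the last at 14.3 FPKM against 1.60 to 2.14 in the other ADV and 0.745 to 2.40 in the LD livers. All 6 macrophage and all 6 B and plasma cell markers had a higher fitted value in the ADV livers. The part of these cells in the Cd38 values was not tested.

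The other 5 genes were close to the LD levels in the livers. The fitted differences were −0.17 for Nadk, 0.13 for Parp1, −0.09 for Sirt1, 0.07 for Sirt5 and 0.04 for Nmnat1 on the log2 scale, with SE between 0.10 and 0.21 and exact permutation p between 0.11 and 0.74, and that of Parp1 was 0.02 without A94. Those of Sirt5 and Nmnat1 changed sign with scaling by the median ratio.

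**Figure D3:**
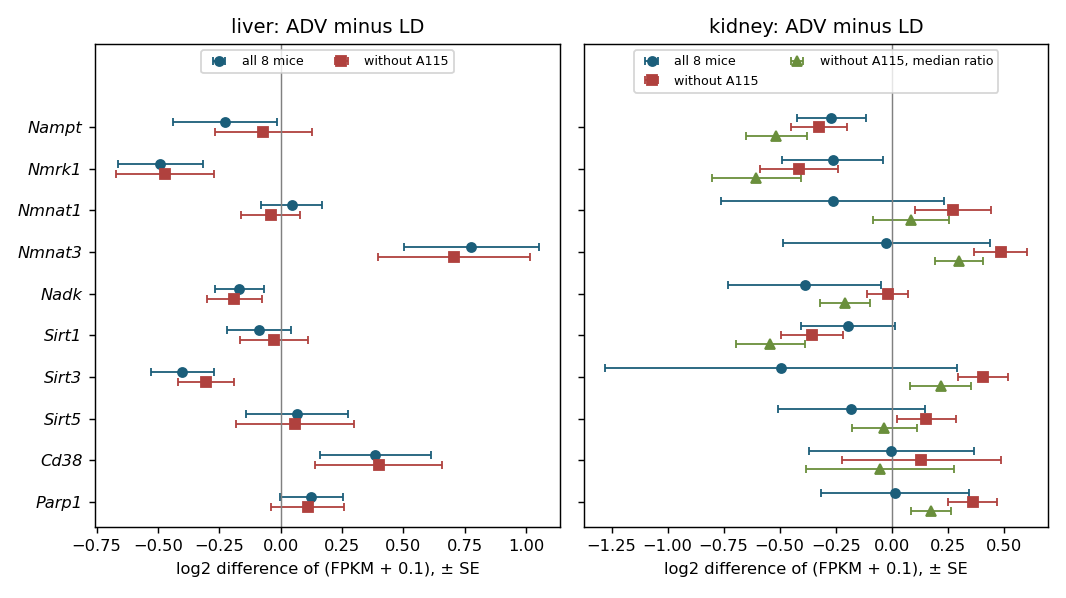
Log2 difference of FPKM + 0.1 between ADV and LD mice (points) with the standard error from limma (bars) for the 10 genes, in the liver with all 8 mice and without A115, and in the kidney with all 8 mice, without A115, and without A115 after scaling by the median ratio. In the kidney the bars with all mice are wide for Sirt3, Nmnat1 and Nmnat3, whose signs change without A115.

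In the kidney 0 of the 10 genes passed between ADV and LD mice, by limma or by limma-voom, and 0% of all 14452 genes passed. None of the 10 reached an unadjusted p under 0.05, against 3.1% of all genes, and in none were the 4 ADV kidneys apart from the 4 LD kidneys, against 2.8%. These counts rest on the A115 kidney, which lay below all 7 other kidneys for 7 of the 10 genes, as it did for 55.4% of all genes. Sirt3 showed this most, with 3.04 FPKM in A115 against 25.8 to 40.5 in the others. Ric8a, its neighbour on the opposite strand, was also lowest in A115, at 1.97 against 7.37 to 11.3. Nmnat1 lay at 2.01 against 7.05 to 12.1, Nmnat3 at 1.59 against 4.44 to 7.28, and Nadk at 19.5 against 49.8 to 59.6. Sirt5 (2.57 against 5.11 to 7.48), Parp1 (4.73 against 9.22 to 13.8) and Cd38 (2.52 against 2.62 to 7.25) were below the range of the others too. Sirt1, at 8.77, lay above the others (4.57 to 7.58), and Nampt and Nmrk1 lay among them.

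The position of a gene in the A115 kidney went with the GC content of its transcript, a comparison added after the values had been seen. GC content was taken from the GENCODE transcript nearest in length and was found for 96.2% of the genes tested. These genes were divided by GC content into 5 classes of equal size. In the class with the lowest GC content the median of A115 against the other 7 kidneys was 0.46 on the log2 scale, and in the class with the highest it was −2.04, while in the other kidneys the same medians differed by between −0.43 and 0.89. Of the 10 genes, the 4 with the lowest GC content, Nampt (40.3%), Cd38 (40.9%), Sirt1 (42.9%) and Nmrk1 (44.5%), had differences between −0.25 and 0.44. The 6 genes from Nadk (50.4%) to Sirt3 (55.4%) had differences between −1.14 and −3.35. In the GC class of Sirt3 2.55% of the genes lay lower than Sirt3 in this library, and in that of Nmnat1 5.50% lay lower than Nmnat1. What separates this library from the others was not tested.

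With all mice the fitted difference was negative in 9 of the 10 genes and positive in 46.4% of all genes, with a median of −0.23 (log2) beside −0.02 over all genes, and without A115 it was negative in 4 of the 10. Without A115, 2 of the 10 genes passed, against 18.9% of all genes, whose median was then 0.20 as deposited and 0.01 with scaling by the median ratio. Nmnat3 was at 4.57, 5.12, 5.34 and 4.44 FPKM in L63, L65, L86 and L104 and at 7.28, 6.22 and 7.05 in A75, A91 and A94, and so was higher in each of these ADV mice (log2 0.49, SE 0.12, adjusted p = 0.029). Sirt3 was at 25.8, 31.9, 26.1 and 31.7 in the LD kidneys and at 34.9, 40.5 and 39.2 in the 3 ADV kidneys, and was also higher in each (log2 0.41, SE 0.11, adjusted p = 0.039). In both genes the exact permutation test gave p = 0.029, its smallest value for 3 mice against 4. For Sirt3 the overlap with Ric8a limits these values too. Parp1, from 9.22 to 10.5 in LD and from 10.9 to 13.8 in ADV, missed the threshold (log2 0.36, adjusted p = 0.051). Sirt1 pointed the other way, with 6.42 to 7.58 in LD and 4.57 to 6.18 in ADV (log2 −0.36, adjusted p = 0.10). The 3 ADV kidneys were thus apart from the 4 LD kidneys in 4 of the 10 genes, against 32.8% of all genes. With scaling by the median ratio as well, a different pair passed, Nampt (log2 −0.51, SE 0.14, adjusted p = 0.040) and Sirt1 (log2 −0.54, SE 0.15, adjusted p = 0.046), against 16% of all genes, and Nmnat3 (0.30, adjusted p = 0.081) and Sirt3 (0.22, adjusted p = 0.27) did not.

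Here too the differences went with GC content. Over the 3 ADV and 4 LD kidneys, the median difference went from −0.15 in the GC class with the lowest content to 0.64 in that with the highest. The difference of Nmnat3 stood 0.12 and that of Sirt3 0.04 from the median of the GC class, and that of Parp1 −0.01. For Nampt, Sirt1 and Nmrk1 the distances from these medians were −0.17, −0.20 and −0.41, and for Cd38 the distance was 0.29. In the liver, the medians of the classes ran from 0.14 to 0.06, and there Sirt3, Nmrk1 and Nmnat3 lay −0.47, −0.60 and 0.70 from the medians of their classes. The part of GC content in the kidney values was not tested.

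**Figure D4:**
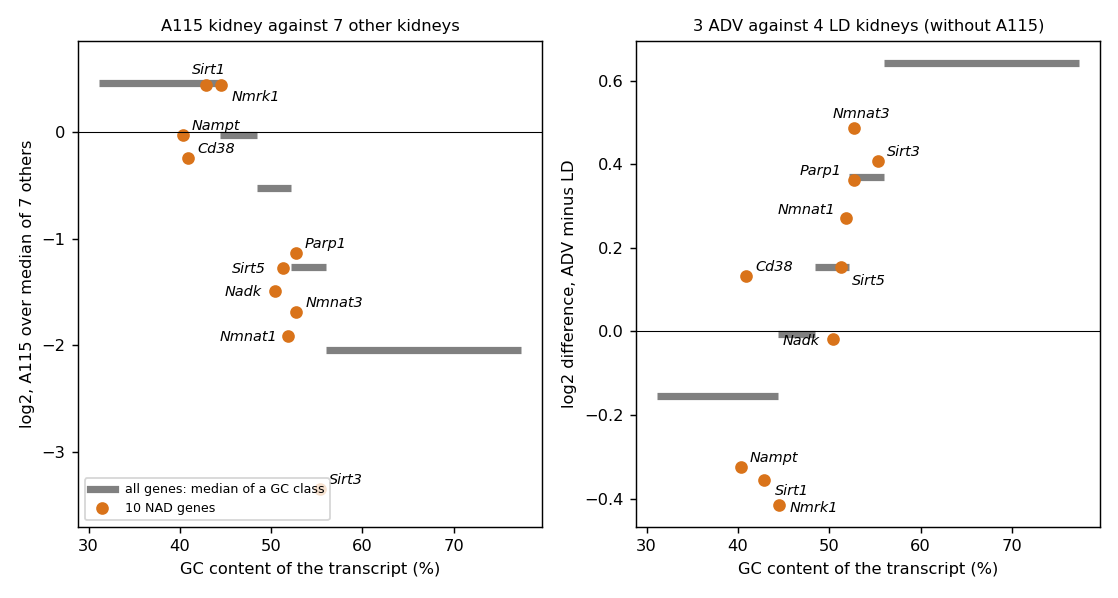
GC content of the transcript (x axis, %) against the log2 difference of the A115 kidney from the median of the 7 other kidneys (left) and of 3 ADV from 4 LD kidneys without A115 (right), with orange points for the 10 genes and grey bars for the median of all genes tested in each of 5 GC classes. The medians fall from 0.46 to −2.04 on the left and rise from −0.15 to 0.64 on the right.

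Whether the ADV difference itself differed between the organs was tested as an interaction over the 16 libraries. None of the 10 genes passed, by limma (each with an adjusted p of 1) or by limma-voom, and 0% of all 14379 genes passed. None of the 10 reached an unadjusted p under 0.05, beside 3.73% of all genes. Without A115, Sirt3 passed, lower under ADV in the liver and higher in the kidney, with a difference between the 2 effects of −0.71 (log2, SE 0.16, adjusted p = 0.034), against 2.89% of all genes. With scaling by the median ratio as well, the difference was −0.63 (adjusted p = 0.11) and none of the 10 passed, against 3.44% of all genes. Without A115 and as deposited, the liver part for Sirt3 was −0.30 (limma, adjusted p = 0.47). The kidney part was 0.41, which stood 0.04 from the median of its GC class.

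The spread between mice was compared as well. The SD on the log2 scale was larger in ADV for 9 of the 10 genes in the liver, all but Nmnat3, beside 76.5% of all genes, and for 8 without A94, when Cd38 was no longer among them, beside 56.5%. In the kidney it was larger in ADV for 10 of the 10, beside 90.1% of all genes, and for 6 without A115, beside 61.9%. In the liver the ratio of the SDs ran from 0.69 for Nmnat3 to 9.93 for Nampt, with 3.20 for Sirt3.

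Since Nampt is a known output of the clock, its level was set beside that of clock genes by mouse. In the livers of A75 and A115, which had the lowest Nampt, the activator gene Arntl, which encodes BMAL1, was highest at 5.91 and 6.72 FPKM, and the clock output gene Dbp was lowest at 2.40 and 1.33. The other 6 livers had Arntl between 0.700 and 3.95 and Dbp between 8.25 and 37.8. Over the 8 livers Pearson's r of Nampt on the log2 scale was −0.85 with Arntl (Spearman's rho −0.76) and 0.90 with Dbp (rho 0.62). The exact permutation p of r was 0.0048 and 0.0072, and 0.029 for both after adjustment over the 8 relations examined. For rho the permutation p after the same adjustment was 0.29 with Arntl and 0.46 with Dbp, so that neither passed on ranks. With Nr1d1 r was 0.84 (rho 0.52, adjusted permutation p = 0.087), and with Per2 it was 0.30 (rho 0.19, adjusted permutation p = 0.73). Without A75 and A115 the values of r for Arntl, Dbp and Nr1d1 were −0.55, 0.44 and −0.21 (and −0.13 for Per2 without L104 and A75), so that these relations rest on those 2 mice. With 4 mice in each condition, no correlation was computed within a condition.

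In the kidney no such relation of Nampt was found. Pearson's r was −0.38 with Arntl, 0.10 with Dbp, −0.05 with Nr1d1 and 0.20 with Per2 (rho −0.36, 0.29, 0.29 and 0.24; adjusted permutation p between 0.71 and 0.95), and r was 0.06, 0.62, 0.51 and 0.61 without the 2 mice farthest from the median of each clock gene. Arntl was again highest in A75 and A115, at 4.61 and 6.35 FPKM, where Nampt was at 47.3 and 63.9, the first the lowest of the 8 kidneys and the second inside the range of the others.

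**Figure D5:**
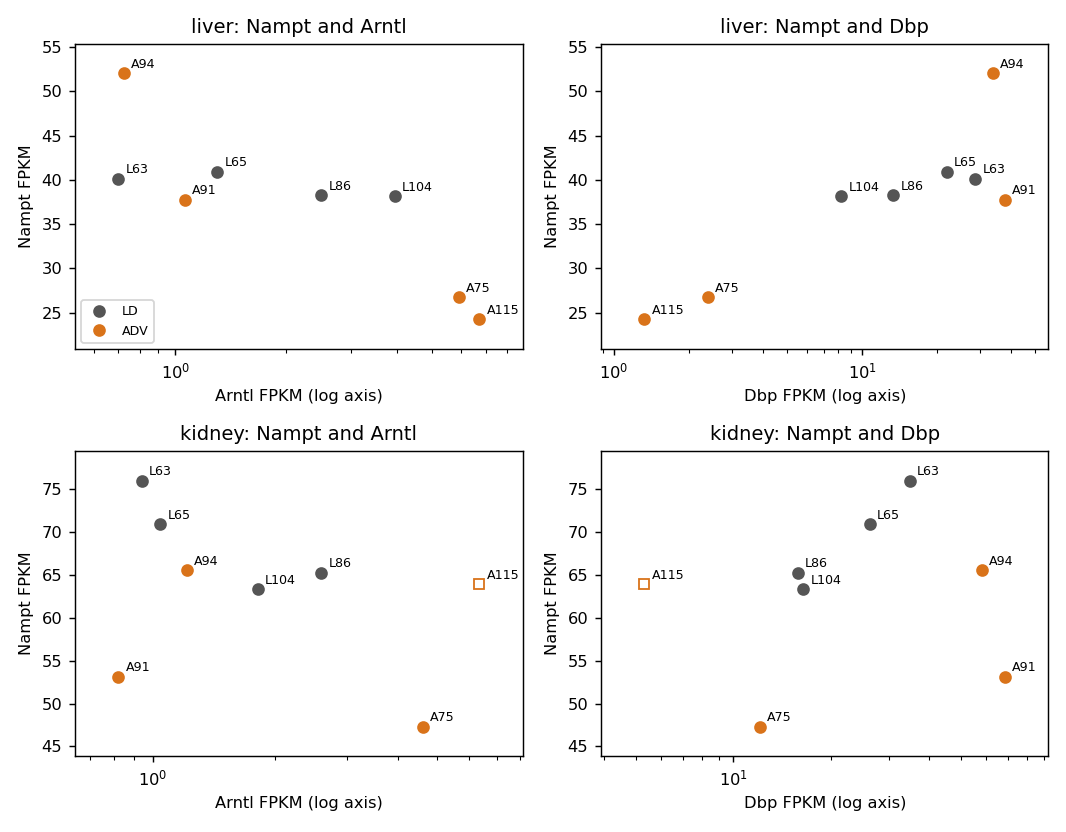
Nampt FPKM (y axis) against Arntl (left) and Dbp (right) FPKM on a log axis, in the liver (top) and kidney (bottom), with 1 point per mouse, grey for LD and orange for ADV, and an open square for the A115 kidney. In the liver A75 and A115 combine Nampt of 26.7 and 24.2 FPKM with the highest Arntl and the lowest Dbp, and in the kidney no such line is seen.

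The genes whose level followed each of the 10 most closely were sought by Pearson's r of the log2 values over the 8 livers and over the 8 kidneys, taking the smaller of both values, among 12318 genes. These are descriptions over mice that share libraries. For Nampt they were Gbe1, a glycogen branching enzyme (0.96 in the liver and 0.89 in the kidney), Ubxn8, Uri1, Thap12 and Riok2, and without the A115 kidney the 5 kidney values were between 0.80 and 0.96. For Cd38 they were AK202301, the chemokine gene Ccl6 (0.95 and 0.92) and Adamdec1 (0.92 and 0.93), and for Parp1 the splicing factor gene Puf60 (0.97 and 0.99), Poldip3 and Npdc1. For Nmrk1 they were Fam126b, AK165059 and the growth hormone receptor gene Ghr (0.83 and 0.89), and for Sirt1 the RNA helicase gene Ddx3x (0.85 and 0.83), Steap2 and 1190002N15Rik.

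The same values were also computed without the A115 kidney. Those of the first-named genes for Nmrk1, Sirt1, Cd38 and Parp1 were then 0.83, 0.78, 0.96 and 0.96, and those for the other 5 genes were as follows. The gene most like Nadk was Coq10a, with 0.97 in the kidney and −0.16 without A115. Amt, which encodes a part of the glycine cleavage system, was most like Nmnat1 and went from 0.93 to 0.33. Traf4 for Sirt3 went from 0.97 to 0.71, Spry4 for Sirt5 from 0.96 to 0.53, and Tmem53 for Nmnat3 from 0.98 to 0.83. No such value was computed without A94, in which Cd38 was highest in both organs, at 12.4 FPKM in the liver and 7.25 in the kidney.

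A wider list of 40 further genes was examined in the same fits, with the pathway from tryptophan, other salvage and transport genes, the clearance of nicotinamide, the other sirtuins and other NAD consumers. In the liver 36 of them were tested and 0 passed. At an unadjusted p under 0.05, 6 were higher in ADV and 2 lower, beside 11.8% of all genes at that p in either direction, and the median was 0.06 (log2) beside 0.10 over all genes. The largest by the moderated t were Nt5e, an ectonucleotidase that can take nicotinamide mononucleotide to the riboside, from 1.78 ± 0.514 FPKM in LD to 3.94 ± 1.32 in ADV (log2 1.10, SE 0.26, adjusted p = 0.30), Parp3, and Pnp, a purine nucleoside phosphorylase (log2 0.71, SE 0.21, adjusted p = 0.32). For 6 of the 36 genes the groups did not overlap, beside 8.84% of all genes. Among them, Nt5e and Parp3 were higher in every ADV than in every LD liver. Among those with negative values, Parp16 (log2 −0.36, adjusted p = 0.31) and Sirt2 (log2 −0.17, adjusted p = 0.42), a mostly cytosolic deacetylase, had every ADV liver below every LD liver, and Slc25a51, the mitochondrial NAD carrier, had a difference of −0.52 with overlapping groups.

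In the kidney 35 genes of the list were tested, 0 passed, and 2 reached an unadjusted p under 0.05, beside 3.1% of all genes. These were Nnt, the proton-translocating transhydrogenase of mitochondria (log2 −0.33, SE 0.14), and the aldehyde oxidase gene Aox1, at a very low 0.108 ± 0.0323 FPKM in LD and 0.216 ± 0.00706 in ADV. Next by the moderated t came Kmo (−0.42) and Nadk2 (−0.31) on the negative and Pnp (0.47) and Acmsd (0.42) on the positive side, each with an adjusted p of 1. Without A115, 6 of the 35 genes passed, beside 18.9% of all genes, and as deposited these were higher in ADV, namely Sirt6 (log2 0.93), Qprt (0.91), Parp10 (0.87), Naprt (0.74), Pnp (0.68) and Sirt7 (0.45). Their transcripts had a GC content between 57.0% and 60.0%, with the exception of Pnp at 46.0%. With scaling by the median ratio as well, 5 passed, beside 16% of all genes, with Sirt6 (0.74), Qprt (0.72) and Pnp (0.49) higher and Nnt (−0.46) and Tnks2 (−0.41) lower in ADV.

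Between the organs, 29 of 36 genes of the wider list differed, 15 of them higher and 14 lower in the liver, beside the 74.5% of all genes. With scaling by the median ratio 26 differed, 19 higher and 7 lower, beside 65.3%. Tdo2, the tryptophan dioxygenase that opens the route from tryptophan, had a mean of 900.2 ± 176.1 FPKM in the liver and was at or under 1.17 in every kidney. Aox3, an aldehyde oxidase, and Nnmt, which methylates nicotinamide, had 100.1 ± 27.9 and 168.8 ± 36.1 FPKM in the liver against 0.198 ± 0.058 and 1.24 ± 0.615 in the kidney (n = 8). Parp8, Bst1, a relative of Cd38, and Nt5e were higher in the kidney, at 9.52 ± 2.65, 6.43 ± 1.16 and 32.8 ± 8.98 FPKM against 0.436 ± 0.211, 0.325 ± 0.153 and 2.86 ± 1.48 in the liver. These differences all exceeded the shift that the choice of scaling makes in the median of all genes.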

How the data were processed

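Stranded poly(A) RNA-seq of liver and kidney from 4 LD and 4 ADV mice was examined. Per the labels and the study's methods, the authors trimmed reads with Trimmomatic, mapped them to GRCm38/mm10 with STAR 2.5.4b, removed reads of mapping quality under 10 with SAMtools, and used HOMER to quantify the exons of genes from the UCSC known canonical set. The deposited values are FPKM, each scaled to exon length and to the library's own total, and every value came out in steps of 0.5 fragment (tolerance 0.02). The sources name 2 sequencing providers without assigning libraries to them, so that a batch could not be examined. No column was unmatched to a sample.

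Genes with a mean above 0.5 FPM (fragments relative to a library's total) in an organ were tested on log2(FPKM + 0.1) with limma 3.58.1 in R 4.3.3 (lmFit, eBayes with trend), with Benjamini-Hochberg adjustment over all genes. A log2 fold change on this scale understates the change of low genes. The deposited unit is FPKM, so the paper's count test was not used, and a count-based fit (limma-voom on the recovered fragments) served as an alternative. Exact permutation tests were two-sided over 70 assignments, or 256 sign changes for organ pairs. The mouse numbers pair liver and kidney by animal. As a check, the deviations of the 2 organs from their group means correlated across genes at 0.147, 0.117, 0.185 and 0.098 in L63, L65, L86 and L104 and −0.024, 0.334, 0.553 and 0.042 in A75, A91, A94 and A115. The procedure was tested on simulated data.

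The members, the wider list, the marker lists and the tests were chosen with earlier results of these data known. Of the wider list, the 3 genes with the largest moderated t per direction and organ and the 3 with the largest organ differences per direction are named. For likeness the 5 closest genes are given for Nampt and up to 3 for the others. As alternatives, median-ratio scaling, quantile normalization and totals without mitochondrial genes were tried, as were other pseudocounts (0.5, 1), filters (none, FPKM above 1), limma-voom on recovered fragments and a replicate block for the mouse. Each mouse was left out once, and A115 and A94 also under median-ratio scaling. For the wider list and the single organ differences these were added after the data had been seen, as were the GC values (GENCODE M21) and the counts of spread and separation without A115 or A94. Promoter windows are from RefSeq.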

Additional observations from a re-analysis of the deposited data

Results flagged for a closer look

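In groups of 4 mice, 40 for the 10 NAD genes and 64 for named genes of the wider list, the highest or the lowest mouse was compared with the others by Dixon's ratio. Chance alone marks about 1 in 20 groups, and 11 were marked here, 3 of them in the 10 genes. Sirt3 in the ADV kidneys was 3.04 FPKM in A115, far under the other 3. Sirt5 in the LD livers was 3.54 FPKM in L86, under the others. Cd38 in the ADV kidneys was 7.25 FPKM in A94, above the others, in the mouse whose liver and kidney carried the highest immune marker sums, and the part of immune cells was not tested.

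In the wider list, Parp16 was 1.94 FPKM in the A115 kidney and Parp8 0.948 in the A94 liver, at the low and the high end of their ADV groups. Pnp was 18.0 FPKM in the A91 liver, under the other ADV livers, and Tdo2 was 1265 in the same liver, above them. In the LD kidneys, Kmo was 55.4 FPKM and Nnmt 1.87 in L86, the first below and the second above the other 3. Tdo2 in the kidney was 0.036 FPKM in L65 and 1.17 in A94, each above the rest of its group. The other 3 LD kidneys were listed at 0 for Tdo2, so that any value above 0 would have been marked there.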

How the results depend on the processing

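In the liver, 0 of the 10 genes and 0 of the wider list passed under every alternative run. In the kidney, 2 of the 10 passed without A115 and 2 others with the median ratio and without A115, and of the wider list 6 and 5 passed in these settings (range over single mice left out 0 to 6, and 0 to 2 for the 10 genes). The difference between the organs' ADV effects gave 1 gene without A115 (range 0 to 1). Between organs 6 to 10 of the 10 genes passed with single mice left out, beside 10071 (without L63) to 12309 (without A115) of all 14379 genes. With all mice and no filter on low values 6 passed, beside 12586 of 21455 genes. The cause of these changes was not tested. In the fit with the mouse as a replicate block, 8 of the 10 genes passed between organs, beside 10902 of 14379 genes. In the liver, the kidney and the interaction 0 passed, so that this paired fit changed no call. It takes the spread of a gene over both organs. The unadjusted limma p in the liver was then 0.51 for Sirt3, 0.076 for Nmnat3 and 0.032 for Nmrk1.

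ADV differences that changed sign were all small or rested on A115. In the liver, Nmnat1 (0.04) was −0.044 with the median ratio, −0.045 with quantile normalization and −0.13 with the median ratio without A115, and −0.041 to 0.12 with single mice left out. Sirt5 (0.07) was −0.023, −0.038 and −0.031 in the same settings, −0.068 with the median ratio without A94, and −0.050 to 0.26 with single mice left out. In the kidney with single mice left out, Nmnat1 ran from −0.57 to 0.27, Nmnat3 from −0.22 to 0.49, Sirt3 from −0.82 to 0.41, Sirt5 from −0.35 to 0.15, Cd38 from −0.36 to 0.15 and Parp1 from −0.15 to 0.36. With the median ratio without A115, Nmnat1 was 0.084, Nmnat3 0.30 and Sirt3 0.22, and Parp1 was −0.057 with the median ratio without A94. Nmnat3 in the kidney was 0.0011 and 0.021 with pseudocounts of 0.5 and 1 and 0.012 with quantile normalization. Cd38 there was 0.0066 and 0.014 with these pseudocounts, 0.00023 without the mitochondrial total and 0.0083 with limma-voom.

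Between organs (log2, liver minus kidney), scaling by the median ratio, quantile normalization, and the median ratio without A115 and without A94 gave 0.62, 0.53, 0.38 and 0.69 for Nmnat1, 0.17, 0.16, 0.35 and 0.18 for Sirt1, 0.49, 0.47, 0.39 and 0.47 for Sirt5, and 0.22, 0.091, 0.11 and 0.24 for Parp1. Nampt was 0.17 with the median ratio without A115. Nmnat1 ran from −0.45 to 0.021 with single mice left out.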
